A study of Mus musculus with 6 samples.

Results

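The genes described here were 10 imprinted growth genes, chosen by their symbols from the 21776 genes of a table of normalised read counts, namely *H19*, *Igf2*, *Igf2r*, *Cdkn1c*, *Meg3*, *Dlk1*, *Peg3*, *Plagl1*, *Grb10* and *Mest*. *H19* led this choice because it differed between the study's groups, so its own difference is given as a description and not as a test. The table came from strand-specific total RNA sequencing of hearts of adult mice, 3 homozygous *Trdn-as* KO and 3 WT. *Trdn-as* is transcribed antisense to *Trdn*, the gene of the calcium release protein triadin. The KO allele carries a polyadenylation signal placed by Cas9 into the first *Trdn-as* exon in embryonic stem cells. It was passed through chimeras and backcrossed to C57BL/6, so every cell of a KO heart carries it, although *Trdn-as* itself is made in cardiomyocytes. The WT hearts carry the unmodified allele. Sex and age of the single hearts were not given in the sources used here. Values are read counts divided by the size factor of the library and rounded to whole numbers, called normalised read counts below.

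Imprinted genes are transcribed mainly from the allele of one parent. *H19* and *Igf2* lie side by side on distal mouse chromosome 7 and use the same enhancers, with *H19* read from the maternal and *Igf2* from the paternal allele, and a differentially methylated control region bound by CTCF decides which gene the enhancers reach. Many imprinted genes act on fetal growth and are expressed together before birth, then decline after birth in most tissues, the heart included, and this group is often called the imprinted gene network.

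*H19* (ENSMUSG00000000031) is a lincRNA gene on the minus strand at chr7:142575558-142578120 (GRCm38), and its exon holds the hairpin of miR-675. *Igf2* (ENSMUSG00000048583) is on the same strand at chr7:142650766-142666816, with its start 88.7 kb upstream of the *H19* start, and an intron of it holds the hairpin of miR-483. The mature miRNAs are shown because they are the small RNA products of this gene pair. They were not measured here, since the table counts the host transcripts. Sequences are from RefSeq (GRCm38.p6), 5′ to 3′, with the seed, bases 2 to 8, in capitals.
miR-675-5p: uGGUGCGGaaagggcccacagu
miR-675-3p: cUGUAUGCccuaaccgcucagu
miR-483-5p: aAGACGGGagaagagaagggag
miR-483-3p: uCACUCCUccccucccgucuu
The miR-675 arms lie at chr7:142577112-142577133 (5p) and chr7:142577078-142577099 (3p), and the miR-483 arms at chr7:142654968-142654989 (5p) and chr7:142654932-142654952 (3p), all on the minus strand. None of these 4 seeds is shared with another of the 1679 mature mouse miRNAs in that collection. The miR-675 hairpin takes up 84 of the 2460 exonic bases of *H19* (3.41%). *Meg3* and *Mest* also host miRNAs, miR-770 in an exon and miR-335 in an intron.

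The libraries held an estimated 2.59 to 3.62 M counted reads, and WT replicate 1 was the shallowest. *Trdn-as*, listed as AC157017.2 and matched by its identifier ENSMUSG00000112707, stood at 1, 0 and 1 in the KO hearts against 690, 773 and 688 in the WT hearts, which matches the labels. All 10 cardiomyocyte markers were expressed. Their summed level was 97126 to 101655 in KO and 100702 to 123903 in WT hearts, with WT replicate 1 the highest of all. Of the 13753 genes with a mean of at least 10, which were tested with limma, 4 passed an adjusted p of 0.05. WT replicate 1 thus had the lowest depth and the highest cardiomyocyte sum on the deposited scale. That sum is a value divided by the smallest size factor, 0.795, and duplicate reads were removed before counting. The part of these 2 steps in the high sum was not tested.

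Per kilobase of exon, the members differed widely in level in WT hearts. *Igf2r* was highest, with 197 normalised reads per kilobase, followed by *Grb10* with 66.3 and *Cdkn1c* with 64.7, whose WT ranges overlapped each other. *H19* came next with 33.1 and then *Igf2* with 26.6, and their WT ranges did not overlap. *Peg3* followed with 16.4. *Mest* with 11.1, *Meg3* with 9.05 and *Plagl1* with 7.55 formed a run in which each gene's WT range overlapped that of the next. *Dlk1* was last, with 0.118. Of the 10 genes, 9 reached the mean of 10 needed for the test, with 38 to 2121 estimated reads per heart, and *Dlk1* did not.

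For *H19*, the KO hearts gave normalised read counts of 139, 189 and 131 and the WT hearts 72, 78 and 94. Every KO heart lay above every WT heart, and KO replicate 2 was the highest. The mean was 153 ± 31.4 (SD, n = 3) in KO and 81.3 ± 11.4 (SD, n = 3) in WT. This is a ratio of 1.88 and a log2 fold change of 0.89 (SE 0.14, limma on log2(value + 1)). The counting error alone would give an SD of 12 in KO and 9.26 in WT, so the KO hearts differed among themselves by more than counting and the WT hearts by little more. The libraries held 57 to 200 *H19* reads each. Leaving out KO replicate 2 gave a log2 fold change of 0.73 (SE 0.14), and leaving out WT replicate 1 gave 0.81 (SE 0.15). In a bulk heart sample, more *H19* RNA per cell and more cells that make *H19* cannot be told apart.

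**Figure D1:**
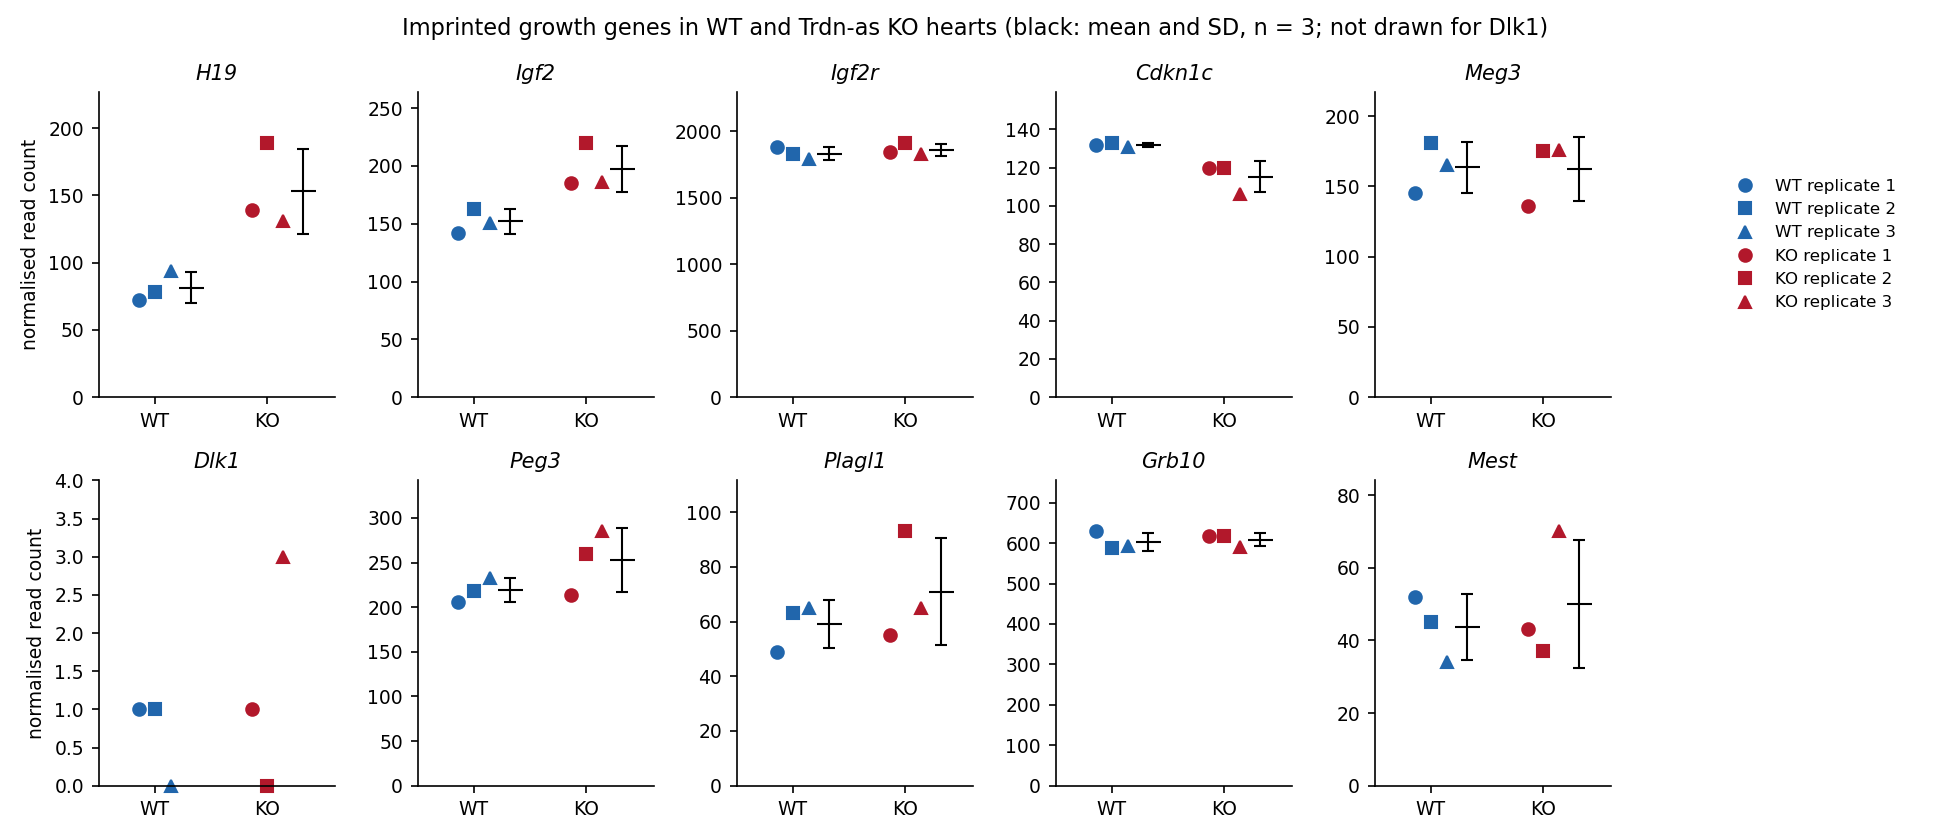
Normalised read counts of the 10 genes in each heart, with WT in blue and KO in red, a marker shape for each replicate number, and the group mean and SD in black except for *Dlk1*. *H19* and *Igf2* have all 3 KO hearts above all 3 WT hearts, *Cdkn1c* has all 3 below, and the other genes overlap between the groups.

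*Igf2*, the fetal insulin-like growth factor, gave 185, 220 and 186 normalised reads in the KO group against 142, 163 and 151 in the WT group. The groups did not overlap, and KO replicate 2 was again the highest heart. Means were 197 ± 19.9 (SD, n = 3) in KO and 152 ± 10.5 (SD, n = 3) in WT, and their ratio was 1.30. The log2 fold change was 0.37 (SE 0.10, 95% interval 0.16 to 0.58), less than that of *H19*. The unadjusted p from limma was 0.00130 and the adjusted p over all genes 0.558, so *Igf2* did not pass the test. It stayed higher in KO whichever heart was left out, with 0.29 without KO replicate 2 and 0.32 without WT replicate 1. As a ratio per heart, *H19* stood at 0.751, 0.859 and 0.704 normalised reads per *Igf2* read in the KO group and at 0.507, 0.479 and 0.623 in the WT group. The KO ratios all lay above the WT ratios, with means of 0.772 ± 0.0794 and 0.536 ± 0.0762 (SD, n = 3 each), a difference that contains the one by which *H19* was chosen. Corrected for exon length, *H19* exceeded *Igf2* in every heart, by 1.80 ± 0.185 in KO and 1.25 ± 0.177 in WT (ratio ± SD, n = 3 each). In GENCODE M21 another annotated gene, Gm49394, covers 62.8% of the exonic bases of *Igf2* on the same strand. Reads shared by overlapping genes were not counted, so the level of *Igf2* beside the other genes depends on whether the authors' annotation held that gene, which is not given in the sources used here.

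Beyond *H19*, 0 of the 8 other tested members passed an adjusted p of 0.05 with limma or limma-voom. With limma 1 of the 8, *Igf2*, had an unadjusted p under 0.05. Over all tested genes these shares were 0.0291% and 5.74% with limma. *Peg3* also had an unadjusted p under 0.05 with limma-voom (0.0436). With single hearts left out 1 to 3 of the 8 had such a p with limma, 3 without KO replicate 1 and 2 without WT replicate 3. *Igf2* and *Cdkn1c* were the 2 of these 8 whose groups did not overlap, against 9.07% of all tested genes. The KO hearts of *Igf2* lay above the WT hearts, as in 4.64% of tested genes, and those of *Cdkn1c* below, as in 4.44%. Of the 8, 6 had a higher mean log2 level in KO and 2 a lower one, and their median log2 fold change was 0.09, beside 0.00165 and 50.6% higher over all genes tested. With single hearts left out the median of these 8 ran from 0.00295, without WT replicate 3, to 0.17, without KO replicate 1, and was 0.08 without WT replicate 1 and 0.02 without KO replicate 2.

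*Cdkn1c*, a maternally expressed inhibitor of cyclin-dependent kinases that restrains growth, lies on the same strand at chr7:143458339-143461050, its start 883 kb from that of *H19*. The KO hearts gave 120, 120 and 106 normalised reads and the WT hearts 132, 133 and 131. All KO hearts were below all WT hearts, opposite in direction to *H19* and *Igf2*. The log2 fold change was −0.20 (SE 0.10, 95% interval −0.41 to 0.02), with an unadjusted p of 0.0773 and an adjusted p of 0.861 from limma. The WT hearts spanned 131 to 133, an SD of 1 where counting error alone would give 11.9, so the gap between the groups is set against a WT spread smaller than counting allows on average.

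**Figure D2:**
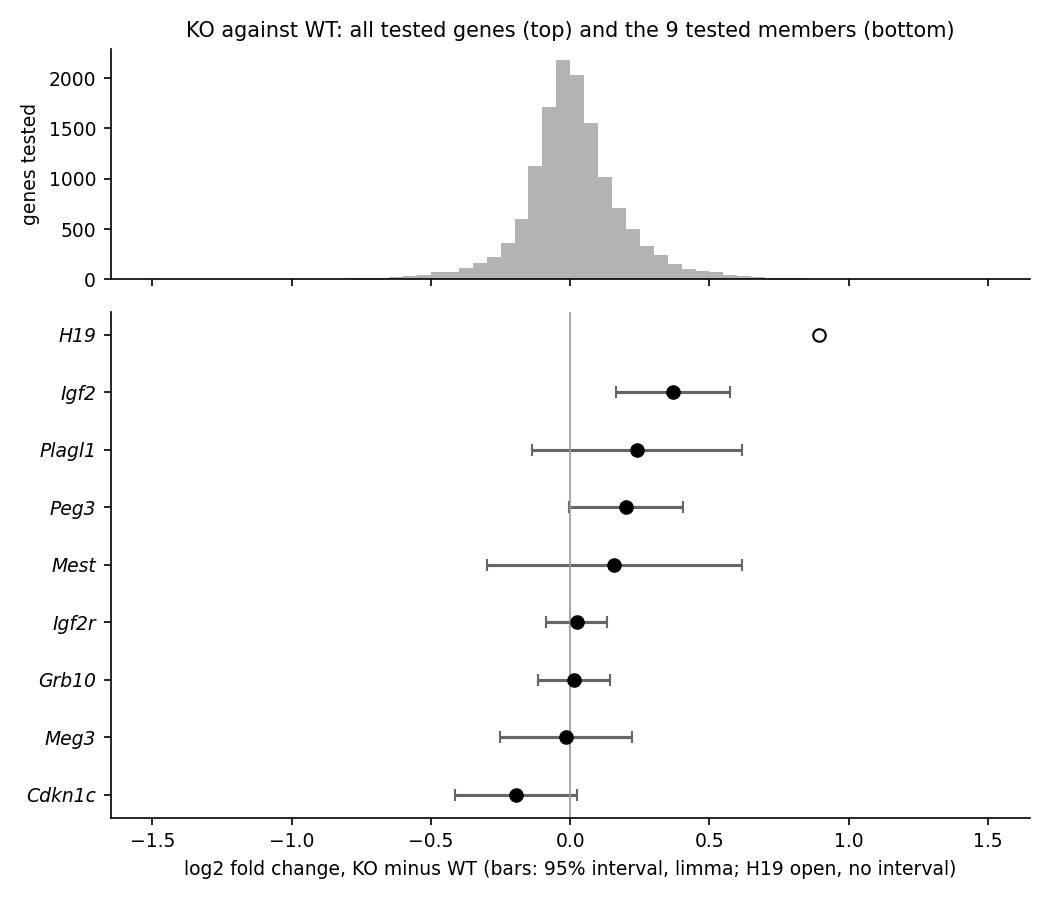
Log2 fold change, KO minus WT, for all 13753 tested genes as a histogram (top) and for the 9 tested members as points (bottom), with 95% intervals from limma except for *H19*, which is drawn open. Of the 8 intervals, that of *Igf2* lies above 0, that of *Cdkn1c* reaches 0.02, and those of *Igf2r* and *Grb10* are the narrowest.

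Among the genes that act on the IGF signal, both members had small differences with narrow intervals. *Igf2r* (chr17:12682406-12769664, minus strand), the maternally expressed receptor that carries IGF2 to the lysosome, had 1846, 1913 and 1826 normalised reads in KO against 1882, 1828 and 1788 in WT hearts. The groups overlapped, and the log2 fold change of 0.02 had a 95% interval of −0.09 to 0.13 (adjusted p = 0.979, limma). *Grb10* (chr11:11930508-12037401, minus strand), an adaptor that dampens insulin and IGF receptor signalling, had 618, 618 and 590 in the KO group and 629, 588 and 592 in the WT group. Its log2 fold change was 0.01 with a 95% interval of −0.11 to 0.14 (adjusted p = 0.991, limma). These are the deepest measured of the 10 genes, and for both the interval leaves out a difference as large as the estimate for *Igf2*.

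The zinc finger genes had higher means in KO with overlapping groups. *Peg3* (chr7:6703892-6730421, minus strand), a paternally expressed zinc finger protein on proximal chromosome 7, had 214, 260 and 285 normalised reads in KO and 206, 218 and 233 in WT hearts. KO exceeded WT by 0.20 on the log2 scale (SE 0.10, 95% interval −0.01 to 0.40), with an unadjusted p of 0.0560 and an adjusted p of 0.851 from limma, and KO replicate 1 lay within the WT range. The difference was 0.31 without KO replicate 1 and 0.11 without KO replicate 3. *Plagl1* (chr10:13090788-13131694, plus strand), a paternally expressed transcription factor known to bind near *H19* and other imprinted genes, had 55, 93 and 65 in KO against 49, 63 and 65 in WT hearts. KO replicate 2, the heart with the most *H19*, was the highest and the other KO hearts lay within the WT range. Its log2 fold change was 0.24 (SE 0.18, 95% interval −0.14 to 0.62, adjusted p = 0.907, limma). It was 0.03 once KO replicate 2 was left out, 0.11 once WT replicate 1 was and 0.40 once KO replicate 1 was.

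*Meg3* and *Dlk1* belong to an imprinted domain of chromosome 12 and, like *H19* and *Igf2*, pair a maternal non-coding RNA with a paternal protein gene, their starts 88.2 kb apart. *Meg3* (chr12:109541005-109571726, plus strand) had 136, 175 and 176 normalised reads in the KO group and 145, 181 and 165 in the WT group, ranges that overlapped almost fully. Its log2 fold change was −0.02 (SE 0.11, 95% interval −0.25 to 0.22, adjusted p = 0.995, limma), and its sign turned with the scaling of the libraries, to 0.00729 with total scaling and 0.00893 with limma-voom. *Dlk1* (chr12:109452849-109463336, plus strand), a transmembrane protein related to Notch ligands, had 1, 0 and 3 in KO and 1, 1 and 0 in WT hearts. All values were at or under the level of 3 reads, so a difference was not detectable at this depth and no fold is given. Unlike *Dlk1*, the paternal partner *Igf2* was thus readily measured in these hearts.

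*Mest* (chr6:30733506-30748465, plus strand), a paternally expressed enzyme of the alpha/beta hydrolase fold, had 43, 37 and 70 normalised reads in KO against 52, 45 and 34 in WT hearts. KO replicate 3 was the highest, KO replicate 2 was near the low end, and the groups overlapped. The log2 fold change of 0.16 (SE 0.22, 95% interval −0.30 to 0.62, adjusted p = 0.960, limma) was the least precise of the 9. Leaving out KO replicate 3 gave −0.11, leaving out KO replicate 2 gave 0.34, and leaving out WT replicate 1 gave 0.29.

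By heart, KO replicate 2 had the highest value of the 6 hearts in 4 of the 9 tested members, which were *H19*, *Igf2*, *Igf2r* and *Plagl1*. KO replicate 3 was highest in *Peg3* and *Mest*. WT replicate 1 was lowest in 4, namely *H19*, *Igf2*, *Peg3* and *Plagl1*. The SD between replicates was larger than counting error alone gives for 7 of the 9 genes in KO and for 5 of the 9 in WT.

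Over the 6 hearts, each member was set against *H19* on the log2(value + 1) scale. The KO and WT values of *H19* do not overlap, so a correlation over all hearts carries the group difference, and the value after subtraction of the group means stands beside it, over 3 hearts per group. Of the 8 members, *Igf2* followed *H19* most closely over all 6 hearts, with r = 0.947 (rho = 0.886). After subtraction of the group means its r was 0.739, smaller in size than those of *Plagl1* (0.863) and *Mest* (−0.850). Without the 2 hearts farthest from the median of *H19*, KO replicate 2 and WT replicate 1, the r of *Igf2* was 0.823 over 4 hearts. All 8 such relations are descriptions with no p, since *H19* was chosen by its group difference. Of all other tested genes, 3.32% reached an r of at least 0.8 with *H19*, as did *Igf2* among the 8 members. With total scaling of the libraries 4.73% did, and among the members *Igf2* (0.954) and *Igf2r* (0.830).

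The other members fell into relations that held with one way of looking and not another. *Plagl1* had r = 0.706 (rho = 0.638), and 0.863 after subtraction of the group means, but −0.502 without the 2 farthest hearts, so its relation with *H19* rested on KO replicate 2 and WT replicate 1. *Peg3* had r = 0.635 (rho = 0.543), which became 0.258 with the group means subtracted and 0.364 without those hearts. *Cdkn1c* had r = −0.682 (rho = −0.754) over all hearts and 0.470 once the group means were subtracted, so the sign within the groups was opposite to that over all hearts. *Mest* had r = −0.117 (rho = −0.371) over all hearts and −0.850 within groups, but 0.457 without the 2 farthest hearts. *Igf2r* at 0.393 (rho = 0.257), *Grb10* at 0.160 (rho = 0.0580) and *Meg3* at 0.0974 (rho = −0.0857) were closer to 0 on the deposited scale, and stood at 0.830, 0.584 and 0.195 with total scaling. Without the 2 farthest hearts these became 0.477, 0.653 and −0.628. For *Igf2r* the deposited scale gave 0.170 with the group means subtracted and −0.231 without KO replicate 2.

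**Figure D3:**
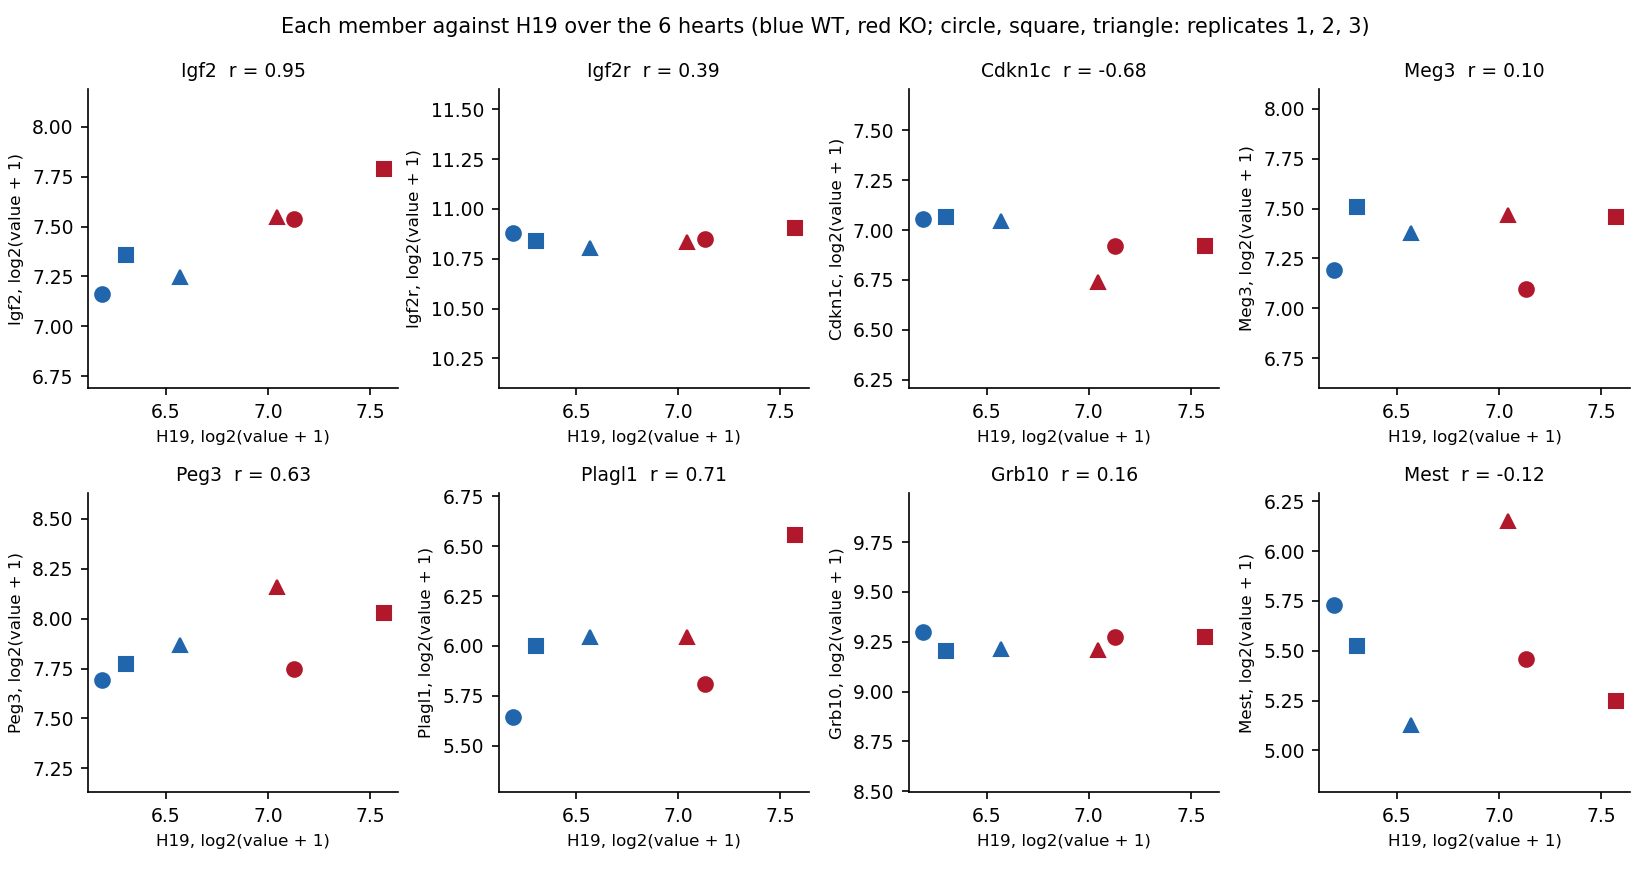
Each tested member against *H19*, both as log2(value + 1), with WT hearts in blue and KO hearts in red and the same vertical span in every panel. *Igf2* lies along a rising line (r = 0.947), *Cdkn1c* steps down from WT to KO (r = −0.682), and *Igf2r* and *Grb10* are flat.

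By the same measure, the 5 genes most like *H19* among the 9464 other genes with a mean of at least 50 were *Rbm15b* (r = 0.985), *Smg8* (0.977), *Vps4b* (0.976), *Zfp260* (0.972) and *Vsir* (0.970), each over 6 hearts. None is a known imprinted gene of this network. *Vsir*, an immune checkpoint receptor, had 186, 220 and 189 normalised reads in the KO group and 151, 160 and 178 in the WT group, and its r was 0.974 with the group means subtracted. *Rbm15b*, an RNA-binding protein of the m6A methyltransferase complex, had 184, 195 and 173 in KO and 148, 146 and 155 in WT hearts. Both had KO replicate 2 as the highest heart, as *H19* did. Such likeness over 6 hearts is a description, since 9464 genes were searched for it.

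On chromosome 7, the difference seen for *H19* and *Igf2* was not shared by most genes around them. Within 1 Mb of the *H19* start, 17 other genes were tested, of which 3 had a higher mean log2 level in KO and 14 a lower one. Their median log2 fold change was −0.04, and 0 passed the adjusted threshold with limma or limma-voom, while 2 had an unadjusted p under 0.05 from limma. Over all tested genes 50.6% were higher and 5.74% had such a p. With single hearts left out 3 to 6 of the neighbours were higher, 1 to 3 had such a p, and their median was −0.06 to −0.02. The count of 6 higher, with 10 lower, was without WT replicate 3. *Mrpl23*, a mitochondrial ribosomal protein gene and the nearest annotated gene downstream of *H19*, had 23, 22 and 25 normalised reads in KO against 25, 25 and 22 in WT hearts. The lincRNA Gm33148, between *H19* and *Igf2*, had 0, 1 and 5 in the KO group and 0, 0 and 1 in the WT group, and *Igf2os*, antisense to *Igf2*, had 1, 1 and 0 in KO and 0, 0 and 2 in WT hearts. Both were too low for the test. The groups did not overlap in 4 of the 17 genes, which were *Lsp1*, *Cdkn1c*, Gm37364 and R74862, beside 9.07% of all tested genes (4.64% with KO above and 4.44% with KO below). *Lsp1*, a leukocyte actin-binding protein gene 117 kb from the *H19* start, was the one with KO hearts higher, at 215, 247 and 224 against 191, 193 and 176. It differed by 0.29 on the log2 scale (SE 0.09, adjusted p = 0.744, limma). Gm37364, in the *Kcnq1* domain and named after its values were seen, had 94, 83 and 91 in KO against 119, 97 and 151 in WT hearts. The processed transcript R74862, named likewise, had 17, 20 and 23 against 30, 24 and 26.

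**Figure D4:**
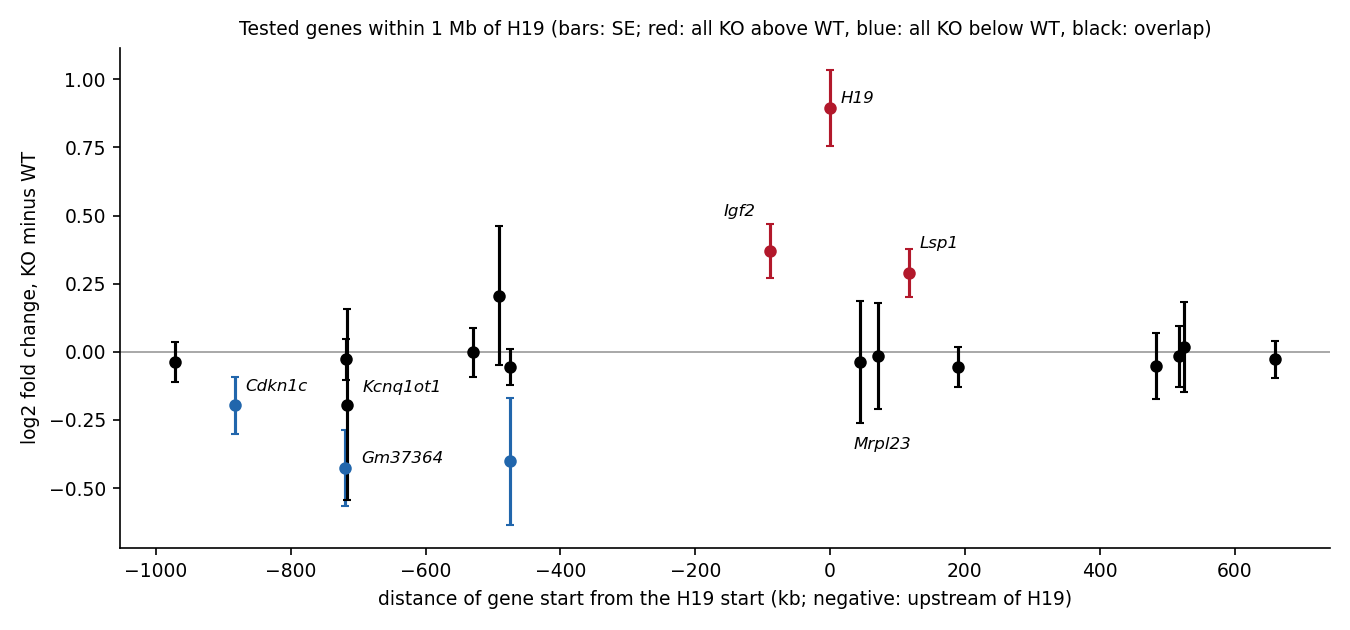
Log2 fold change, KO minus WT, with SE for the 19 tested genes within 1 Mb of *H19*, by distance of their start from the *H19* start in kb. *H19*, *Igf2* and *Lsp1* (red) have all KO hearts above all WT hearts, *Cdkn1c*, Gm37364 and R74862 (blue) all below, and most other genes are near 0.

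Genes in and beside imprinted domains, beyond the members, showed no common direction. The lists hold neighbours such as *Lsp1* and *Mrpl23* too, and imprinting in the heart was not assessed for any gene. Of 73 listed in the distal chromosome 7 domains, the *Dlk1*-*Dio3* domain and other imprinted loci, 43 were tested, with 20 higher, 23 lower, their median log2 fold change −0.00185 and 0 past the adjusted threshold with limma or limma-voom, while 2 had an unadjusted p under 0.05. These were *Lsp1*, above, and *Adam23*, a membrane protein of the disintegrin family, with 44, 35 and 34 normalised reads in the KO group and 72, 46 and 47 in the WT group (log2 fold change −0.51, adjusted p = 0.807, limma), which became −0.31 without WT replicate 1. With single hearts left out 1 to 5 of the 43 had an unadjusted p under 0.05 from limma, 5 of them without WT replicate 3. In these fits 19 to 24 were higher. In the distal chromosome 7 domains, *Osbpl5*, a lipid transfer protein gene, had 86, 94 and 100 in KO and 89, 86 and 84 in WT hearts, and *Cd81*, a tetraspanin gene, had 430, 429 and 420 against 469, 444 and 418. In the chromosome 12 domain of *Meg3*, the non-coding RNA *Rian* had 119, 149 and 148 in KO against 118, 147 and 160 in WT hearts, close to the pattern of *Meg3* itself, and *Wdr25* had 43, 44 and 47 against 38, 22 and 43. *Zim1*, a neighbour of *Peg3*, had 44, 52 and 63 in the KO group and 45, 42 and 39 in the WT group, and *Asb4* had 104, 110 and 117 against 68, 98 and 115.

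The wider IGF pathway, the ligands, receptors, binding proteins and adaptors around *Igf2*, had 16 of 23 listed genes tested, 7 higher and 9 lower, with a median of −0.02 on the log2 scale and 0 past the adjusted threshold with limma or limma-voom, 1 with an unadjusted p under 0.05. That gene was *Irs2*, a docking protein of the insulin and IGF1 receptors, with 143, 112 and 94 normalised reads in KO and 148, 160 and 141 in WT hearts (log2 fold change −0.38, SE 0.13, adjusted p = 0.772, limma). KO replicate 1 lay within the WT range, and the log2 fold change was −0.24 without KO replicate 3 and −0.54 without KO replicate 1. Of the 16 genes, 0 had an unadjusted p under 0.05 from limma without KO replicate 3. The count was 3 without KO replicate 1, WT replicate 1 or WT replicate 3. *Igf1r*, the receptor that passes on the IGF2 signal, had 518, 620 and 583 in KO against 487, 541 and 538 in WT hearts (log2 fold change 0.13, adjusted p = 0.861, limma), and 0.08 to 0.21 on that scale with single hearts left out, lowest without KO replicate 2 and highest without KO replicate 1. *Stc1*, a secreted glycoprotein that inhibits the proteases which free IGFs, had 20, 35 and 20 in the KO group and 9, 10 and 32 in the WT group, with WT replicate 3 inside the KO range. Per kilobase of exon, the WT hearts had 26.6 ± 1.84 normalised reads of *Igf2* against 38.8 ± 4.78 of *Igf1*, the main IGF after birth, and 31.1 ± 1.81 of *Igf1r* (SD, n = 3 each), and the WT ranges of *Igf2* and *Igf1* did not overlap. In the KO hearts these levels were 34.4 ± 3.48, 37.5 ± 4.61 and 34.2 ± 3.08. The limit set by Gm49394 holds for these *Igf2* levels too.

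Factors that act on imprinted loci, such as DNA methyltransferases, CTCF, cohesin and Polycomb subunits, had 23 of 27 listed genes tested, 17 higher and 6 lower, with a median of 0.03 on the log2 scale and 0 past the adjusted threshold with limma or limma-voom, with 1 at an unadjusted p under 0.05. Without KO replicate 1, 11 of the 23 were higher and the median was −0.00291. With single hearts left out 0 to 2 of the 23 had an unadjusted p under 0.05 from limma. *Ctcf*, whose protein binds the *H19* control region, had 396, 358 and 355 normalised reads in KO and 365, 376 and 341 in WT hearts. *Rad21*, a cohesin subunit, had 649, 607 and 615 against 560, 596 and 551, with no overlap (log2 fold change 0.13, unadjusted p = 0.0482, adjusted p = 0.851, limma). *Smc1a*, also of cohesin, had 594, 516 and 584 in KO against 512, 542 and 514 in WT hearts. *Plag1*, a transcription factor related to *Plagl1* and an activator of *Igf2*, had 103, 109 and 80 in the KO group and 106, 111 and 113 in the WT group.

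*H19* and *Igf2* in the adult heart could come from several cell types, and marker sums were set beside them. None of the 10 marker lists had a gene past the adjusted threshold with limma or limma-voom. All 10 cardiomyocyte markers had a lower mean log2 level in KO. Their median was −0.16 on the log2 scale, and the 10 values lay between −0.169 and −0.147. An unadjusted p under 0.05 from limma was found for 7 of 10, beside 5.74% of all tested genes. Without WT replicate 1 all 10 were still lower, but the median was −0.06 and 1 of 10 had such a p. With the other hearts left out in turn the median was −0.25 to −0.14. Such a p was found for 10 of 10 without WT replicate 3 and 5 without KO replicate 3. It was found for 1 without KO replicate 2 and 0 without KO replicate 1 or WT replicate 2. *Ttn*, the titin gene, had 73738, 75179 and 76849 in KO against 94044, 84042 and 76522 in WT hearts, and *Ryr2*, the calcium release channel gene, had 9276, 9785 and 9861 against 11387, 10676 and 9991. WT replicate 3 lay close to the KO hearts in both, and the summed ranges of KO and WT given above overlapped. The size factors were 1.15, 1.06 and 1.01 in KO and 0.795, 0.955 and 1.10 in WT hearts. Their part in this shift of highly expressed genes, after the removal of duplicate reads, was not tested. Nor was the part of this shift in the members' values. Fibroblast markers summed to 4434 to 5001 in KO and 4641 to 5011 in WT hearts, with a median of 0.03, and endothelial markers to 5801 to 6525 and 5912 to 6442, also with a median of 0.03. With single hearts left out, the fibroblast median ran from −0.04 without KO replicate 2 to 0.09 without KO replicate 1, and the endothelial one from 0.00570 without WT replicate 3 to 0.12 without KO replicate 1. Leukocyte markers had a median of 0.03, which was −0.05 without KO replicate 2 and 0.15 without KO replicate 1, where 8 of 8 were higher. The median was −0.03 for smooth muscle and pericyte markers (−0.07 to −0.00146 with single hearts left out) and −0.01 for Schwann cell and neuron markers (−0.10 to 0.14). Red blood cell markers were lower in KO in 8 of 8 tested genes, with a median of −0.20, but in 3 of 8 without WT replicate 1, with a median of 0.05, and in 5 of 8 without KO replicate 2, with a median of −0.04. The median was −0.45 without KO replicate 1, with 8 of 8 lower, and −0.43 without WT replicate 2, with 8 of 9 lower and 4 at an unadjusted p under 0.05. Skeletal muscle had 1 tested marker, *Ckm*, which the heart also expresses, at 788, 760 and 805 in KO and 938, 836 and 774 in WT hearts.

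KO replicate 2 was highest in the low-count fat cell markers, but not in the best measured ones, *Lpl*, *Fabp4* and *Pparg*. The adipocyte list had 9 genes in the table, and *Lpl*, a lipase gene that cardiomyocytes also express, gave 86.5 to 89.3% of its sum. *Fabp4*, a fatty acid carrier gene, is in the endothelial list as well. Without these 2 genes the list summed to 95, 155 and 96 in KO and 120, 104 and 113 in WT hearts, and 6 of the 7 genes were highest in KO replicate 2. Some of these 6 were at or under the level of 3 reads in every heart. The other gene, *Pparg*, had 80, 85 and 74 in KO against 94, 78 and 90 in WT hearts. *Cfd*, the adipsin gene, had 6, 27 and 6 in KO against 9, 13 and 10 in WT hearts, and *Adipoq*, the adiponectin gene, had 2, 13 and 5 against 4, 3 and 2. *Plin1*, which coats lipid droplets, had 3, 15 and 4 in the KO group and 8, 6 and 5 in the WT group. The median log2 fold change of the 4 tested adipocyte markers, *Lpl* and *Fabp4* among them, was −0.09. KO replicate 2 is also the heart with the most *H19*, *Igf2* and *Plagl1*, for which the values without it are given above, and the part of fat cells in these levels was not tested.

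Markers of the epicardium and mesothelium, the outer layer of the heart, also varied from heart to heart. They summed to 76, 161 and 120 in KO against 83, 110 and 156 in WT hearts. KO replicate 2, with the most *H19* of all hearts, had the highest sum, and WT replicate 3, with the most *H19* of the WT hearts, the highest WT sum. Over the 6 hearts, the log2 sums of the 10 marker lists had r with *H19* from −0.789 for cardiomyocytes and −0.754 for skeletal muscle to 0.341 for the epicardium and mesothelium, given as a description. With the group means subtracted the range was −0.740 for skeletal muscle to 0.80 for the epicardium and mesothelium, with cardiomyocytes at −0.559. The skeletal muscle sum is mostly *Ckm*, which the heart also expresses, with 788 of 808 in KO replicate 1 and 938 of 952 in WT replicate 1. *Muc16*, a mesothelial mucin gene, had 9, 41 and 17 in KO against 9, 15 and 42 in WT hearts, and *Wt1*, a transcription factor of the epicardium, had 23, 45 and 40 against 35, 38 and 42. *Aldh1a2*, which makes retinoic acid, had 37, 51 and 49 against 39, 50 and 45. The median log2 fold change of the 3 tested markers was 0.02, and −0.32 to 0.17 with single hearts left out. *Upk3b* and *Msln*, which define mesothelium, were low, with 1, 8 and 4 and 1, 3 and 4 in KO and 0, 1 and 7 and 0, 3 and 3 in WT hearts. The part of this layer in the level of *H19* was not tested.

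**Figure D5:**
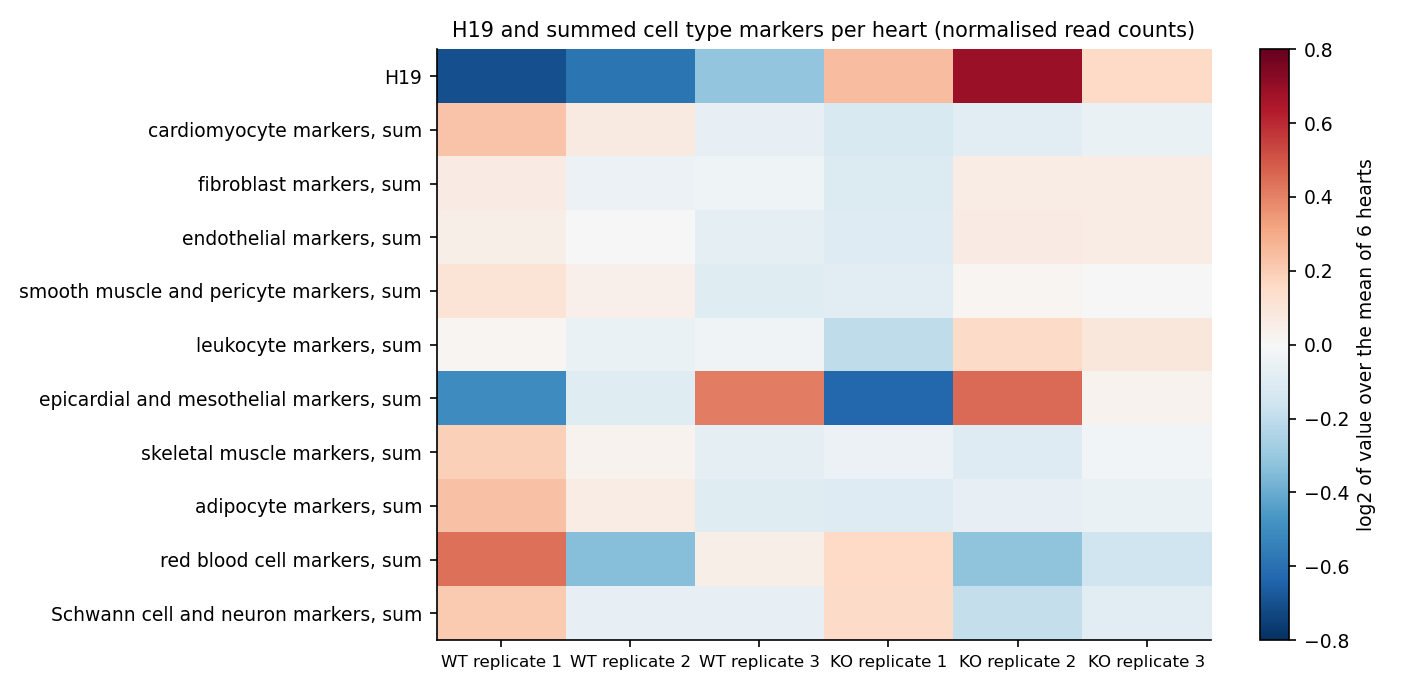
*H19* and the summed normalised read counts of 10 cell type marker lists in each heart, as log2 of the value over its mean across the 6 hearts. *H19* separates WT from KO hearts, the cardiomyocyte sum is highest in WT replicate 1, and the epicardial and mesothelial sum varies within both groups.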

How the data were processed

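The authors sequenced strand-specific total RNA of 3 KO and 3 WT hearts. Per the labels and the study's methods, the authors trimmed reads (Trimmomatic 0.39), aligned them to GRCm38 (STAR 2.6.1d), removed duplicates (Picard 2.21.1), multi-mapping, ribosomal and mitochondrial reads, counted exonic reads by strand (featureCounts 1.6.5) and normalised with DESeq2 1.18.1. The deposited score is the count divided by the library's size factor, rounded, and not per length. As the values are not raw counts, a count test was not used.

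Size factors of 0.795 to 1.15 were read from the gaps that rounding leaves between values, and on simulated data 30 random factors over 21776 genes were recovered within 0.148%. A factor of exactly 24/25, where many quotients tie when rounded, was missed by 3.92%, so the estimates assume factors that are no such fraction. A level of 3 reads equals 2.61 to 3.77 on the deposited scale. It covers counting error only, since the libraries had no molecular identifiers.

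Values were taken as log2(value + 1). Those with means of 10 or more (13753 of 21776 genes) were compared with limma 3.58.1 (R 4.3.3; lmFit, eBayes with trend), two-sided, no covariate, with Benjamini-Hochberg adjustment over all of them and a threshold of 0.05. In simulated data of the KO against WT comparison over 13753 genes, the test recovered 59 to 68% of 1.5-fold and 86 to 88% of 2-fold changes, with at most 5.16% false calls. Many changed genes of all levels were planted there, which loosens the adjusted threshold, while 4 genes passed in the data. These rates therefore need not hold for the members. Correlations with *H19* are given without the exact permutation p planned for them, since *H19* was chosen by its group difference. Exonic lengths came from GENCODE M21 and miRNAs from RefSeq.

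The members and gene lists were chosen with earlier results of these data known. Named genes are the members, the genes of each list past the threshold or else the 3 with the smallest p, the 5 most like *H19*, and the neighbours of *H19* and *Igf2*. Marker lists are given by their sums, with single markers only for cardiomyocytes, skeletal muscle, fat cells and the epicardium. *Ctcf*, *Igf1*, *Upk3b*, *Msln*, *Cfd*, *Adipoq*, *Plin1*, Gm37364 and R74862 are outside this rule and were named after their values were seen. No source says how the hearts relate beyond separate samples of a group, so p-values measure the spread between these samples. Alternatives were other scalings, limma-voom, no mean-variance trend, other filters, a pseudocount of 0.1, a replicate block, a threshold of 0.01 and leaving out each heart.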

Additional observations from a re-analysis of the deposited data

How the results depend on the processing

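The log2 fold change of *H19* was 0.73 to 1.00 over 14 alternatives and that of *Igf2* 0.29 to 0.42, both always higher in KO. The adjusted p of *Igf2* from limma ran from 0.156 to 0.999. The count of genes past the threshold, 4 in the comparison as reported, was 1 without the mean-variance trend, 2 with at least 10 in every sample, where fewer genes were tested, 2 at a threshold of 0.01, and 2 to 32 when single hearts were left out (32 without KO replicate 1, 7 without WT replicate 3, 2 without KO replicate 2 and 2 without WT replicate 1). Members other than *H19* past it numbered 0 under every alternative run. The cause of these shifts was not tested. Directions reversed for *Meg3*, *Grb10* and *Mest*. The log2 fold change of *Meg3* was 0.00729 with total scaling and 0.00893 with limma-voom, and −0.10 to 0.11 with single hearts left out, that of *Grb10* was −0.00401 to 0.0445 and that of *Mest* −0.11 to 0.34. Total scaling moved the median of all genes to 0.02 and limma-voom to 0.03. Correlations with *H19* reversed for *Cdkn1c* with group means subtracted (0.470) and for *Grb10* (−0.00656). Without the 2 hearts farthest from the *H19* median they reversed for *Meg3* (−0.628), *Plagl1* (−0.502) and *Mest* (0.457). With single hearts left out they were −0.231 to 0.797 for *Igf2r*, −0.224 to 0.492 for *Meg3*, −0.115 to 0.799 for *Grb10*, −0.533 to 0.242 for *Mest* and 0.891 to 0.989 for *Igf2*. The deviations of same-numbered hearts correlated at 0.05, −0.07 and −0.03 across genes, which gave no sign of pairing by replicate number. With so few hearts this cannot exclude a shared origin or batch. With a replicate block, 4 genes passed, 0 of them members other than *H19*, and the log2 fold change of *H19* was 0.89. *Dlk1*, at or under the level of 3 reads, was not measurable at this depth.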
